A study of Mus musculus with 4 samples.

Results

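The genes described are the 2 demethylases of trimethylated histone H3 lysine 27 (H3K27me3), *Kdm6b* and *Kdm6a*, and 8 genes of polycomb repressive complex 2 (PRC2), *Ezh1*, *Ezh2*, *Eed*, *Suz12*, *Rbbp4*, *Rbbp7*, *Jarid2* and *Mtf2*. They were taken by name from a table of 19339 genes, and all 10 were found in every library. The study deleted *Kdm6b* in T cells and sequenced RNA of TCRαβ+CD8αα+ IELs, T cells of the gut epithelium with an αβ receptor and CD8α paired with itself. Whether another of these genes was higher where *Kdm6b* had been targeted is the question addressed here. Of the 4 libraries, 2 were labelled control (*Kdm6b* F/F, loxP-flanked alleles without Cre) and 2 were labelled Kdm6b-deficient (*Kdm6b* F/F-*CD4Cre*, the same alleles with a *CD4* promoter-driven Cre that acts from the late double-negative thymocyte stage on). All mice were C57BL/6, the cells came from the small intestine, sorted as CD45+CD4−TCRβ+CD8α+CD8β−, and each library held RNA pooled from 3 mice of a genotype, whose age and sex are not given in the sources used here. Replicates carry the numbers 1 and 3 in each group, and nothing states which pools were prepared together, so errors and p-values measure the spread between these pools.

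PRC2 places methyl groups on lysine 27 of histone H3, a mark of silenced genes. Its catalytic subunit is either EZH1 or EZH2, which works only with the core subunits EED and SUZ12, while RBBP4 and RBBP7 bind histones and JARID2 and MTF2 help to bring the complex to its targets. KDM6B (also called JMJD3) and KDM6A (UTX) remove the mark, and KDM6A is in addition a subunit of the MLL3 and MLL4 methyltransferase complexes. *Kdm6a* lies on the X chromosome and has a relative on the Y chromosome, *Uty*, whose product has little demethylase activity.

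Levels are given as FPKM (fragment counts divided by transcript length and by library depth), so levels can be compared between genes per length. From the spacing of low values the depth of the libraries, relative to control replicate 1, was estimated at 0.841 to 1.01, lowest in the library labelled Kdm6b-deficient replicate 3. The labelled cell type was checked by its markers. All 10 T cell markers were present, led by *Cd3g* at 1259 to 2167 FPKM, whereas *Cd8b1*, excluded by the sort, was at 0 to 1.64 FPKM. *Cd4*, also excluded by the sort, was at 30.6 and 10.1 FPKM in control replicates 1 and 3, and at 30.5 and 3.17 FPKM in replicates 1 and 3 of the Kdm6b-deficient label. The 22 epithelial markers were all above 0 in every library, with summed FPKM of 1393 and 4554 in the controls and 4289 and 11100 in the libraries labelled Kdm6b-deficient. Control replicate 1 and the library labelled Kdm6b-deficient replicate 3 thus stood apart at either end, the first with the least epithelial and the most T cell RNA and the second with the most epithelial and the least T cell RNA, and the log2 fold changes of the 10 genes are also given without each.

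*Kdm6b*, the targeted gene (Entrez 216850, chromosome 11 of GRCm38, 69398508 to 69420367), was not uniformly lower in the libraries labelled Kdm6b-deficient. It was at 16.5 and 16.0 FPKM in control replicates 1 and 3, and at 18.2 and 11.1 FPKM in replicates 1 and 3 of the Kdm6b-deficient label. Replicate 1 of the Kdm6b-deficient label was therefore the highest of the 4 libraries and replicate 3 the lowest, and the groups overlapped. The log2 fold change, labelled Kdm6b-deficient minus control on the log2(FPKM + 1) scale, was −0.18 (SE 0.29, 95% interval −0.91 to 0.56, adjusted p = 0.886 from limma). Without the library labelled Kdm6b-deficient replicate 3, which also had the lowest T cell markers, it was 0.16. Without the library labelled Kdm6b-deficient replicate 1 it was −0.52. Since *Kdm6b* was not lower in both, libraries are named by their label throughout. FPKM sums reads over all exons of a gene. Which exons the loxP sites flank is not given in the sources used here, so these values check the label only as far as a deletion lowers the total of the transcript.

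The study also measured both demethylases by RT-qPCR, whose values are not analysed here. By that assay the paper reports equal *Kdm6a* in Kdm6b-deficient and control TCRαβ+CD8αα+ IELs, and proposes that *Kdm6a* did not compensate. The amplified stretches are shown because they mark which part of each transcript that assay reads, where FPKM reads the whole. Each is printed 5′ to 3′ from the GENCODE vM21 transcript of GRCm38, with the sites of the study's forward and reverse primers in capitals.
*Kdm6b*: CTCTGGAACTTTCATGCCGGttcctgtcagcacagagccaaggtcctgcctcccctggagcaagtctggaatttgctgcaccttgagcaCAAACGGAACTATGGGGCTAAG
*Kdm6a*: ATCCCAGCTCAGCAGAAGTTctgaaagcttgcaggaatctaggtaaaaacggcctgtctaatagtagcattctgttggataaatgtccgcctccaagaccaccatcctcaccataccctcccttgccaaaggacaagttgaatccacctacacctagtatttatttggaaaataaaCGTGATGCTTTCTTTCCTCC
The *Kdm6b* product has 111 bases, runs from exon 7 to exon 8 of 23 (minus strand of chromosome 11, 69407122 to 69407322), and covers coding bases 463 to 573 of 4923. It is thus 1.67% of the 6654-base transcript and lies early in the coding sequence. The *Kdm6a* product has 196 bases, runs from exon 17 to exon 19 of 29 (plus strand of chromosome X, 18254749 to 18261554), and covers coding bases 2669 to 2864 of 4272, or 3.3% of the 5935-base transcript. Neither stretch can be read out of the gene-level FPKM.

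*Kdm6a*, the other H3K27 demethylase (Entrez 22289, chromosome X, 18160862 to 18279936), was at 16.3 and 13.1 FPKM in control replicates 1 and 3. In the libraries labelled Kdm6b-deficient it was at 15.2 and 13.0 FPKM. The groups overlapped, and the highest library exceeded the lowest by 1.26-fold, the narrowest spread of the 10 genes. The log2 fold change was −0.06 (SE 0.24, adjusted p = 0.963 from limma). Its 95% interval ran from −0.66 to 0.55, that is from 0.633-fold to 1.47-fold on the FPKM + 1 scale, which holds a rise of up to 1.47-fold. That limit was 2.21-fold when libraries were scaled to T cell genes, and 2.01-fold without control replicate 1. Without the library labelled Kdm6b-deficient replicate 3 the log2 fold change was 0.05. Those limits bound the differences in *Kdm6a* that the data allow, and are not a threshold of detection. With 2 libraries a group, limma did not call larger differences in other genes either. *Ash2l*, for example, described below, was not called at a log2 fold change of 1.28 (adjusted p = 0.755 from limma). *Kdm6a* shares 0.204% of its 50-base stretches with its Y-linked relative *Uty*.

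The balance of the demethylases likewise overlapped between groups. The ratio of *Kdm6b* to *Kdm6a* FPKM was 1.01 and 1.22 in the controls and 1.2 and 0.851 in the libraries labelled Kdm6b-deficient. Their sum was 32.8 and 29.1 FPKM in the controls against 33.4 and 24.1 FPKM. *Kdm6b* was the higher of the pair in 3 of 4 libraries, the exception being the one labelled Kdm6b-deficient replicate 3, and their mean log2 ratio of 0.083 was smaller than its SD of 0.244 over the libraries (n = 4).

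*Uty*, the Y-linked relative of *Kdm6a*, varied far more than *Kdm6a* itself. It was at 9.63 and 19.2 FPKM in control replicates 1 and 3 and at 13.7 and 7.08 FPKM in the libraries labelled Kdm6b-deficient, so the groups overlapped (log2 fold change −0.43, SE 0.44, adjusted p = 0.829 from limma). Without the library labelled Kdm6b-deficient replicate 3 the log2 fold change was 0.0059. *Kdm5d*, *Ddx3y* and *Eif2s3y*, a histone demethylase, an RNA helicase and a translation factor gene of the Y chromosome, had the same highest library, control replicate 3, and the same lowest library, labelled Kdm6b-deficient replicate 3. *Ddx3y* spanned 12.4 to 46.4 FPKM, while its X-linked partner *Ddx3x* spanned 47.8 to 58.6 FPKM. *Eif2s3y* spanned 23.6 to 64.6 FPKM against 37.7 to 55.6 FPKM for *Eif2s3x*, and *Kdm5d* spanned 2.21 to 6.59 FPKM against 6.59 to 12.0 FPKM for *Kdm5c*. The ratio of *Uty* to *Kdm6a* moved with these, from 0.59 and 1.46 in the controls to 0.903 and 0.544 in the libraries labelled Kdm6b-deficient. The part that the sex of the pooled mice has in *Kdm6a* was not tested.

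**Figure D1:**
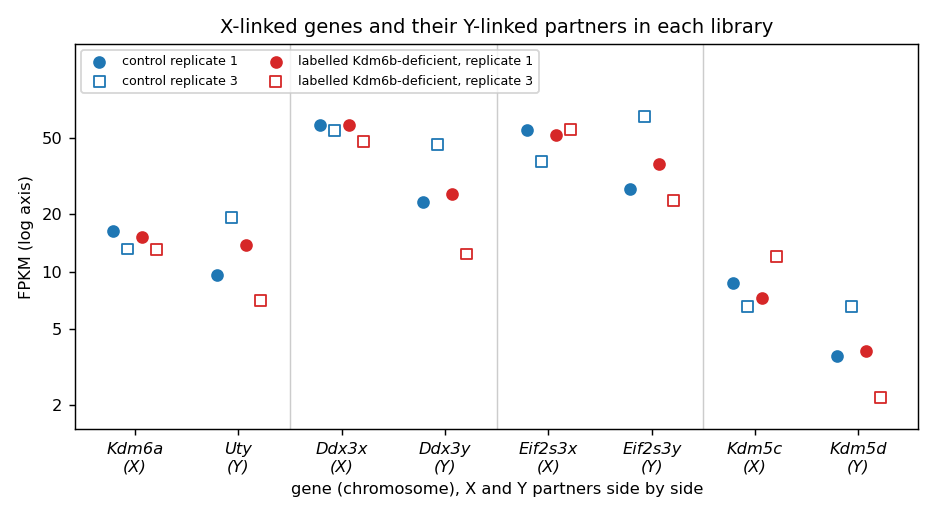
FPKM (log axis) of *Kdm6a* and *Uty* and of 3 further pairs of X-linked and Y-linked partner genes, with 1 point per library. The Y-linked genes are highest in control replicate 3 and lowest in the library labelled Kdm6b-deficient replicate 3, while *Kdm6a* lies between 13.0 and 16.3 FPKM.

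The catalytic subunits of PRC2 did not separate the groups. *Ezh2*, the subunit typical of dividing cells (Entrez 14056, chromosome 6, 47530274 to 47595270), was at 19.5 and 21.7 FPKM in the controls and at 24.7 and 16.2 FPKM in the libraries labelled Kdm6b-deficient. *Ezh1*, its counterpart in resting cells (Entrez 14055, chromosome 11, 101191115 to 101226463), was at 36.8 and 31.9 FPKM in the controls and at 27.2 and 33.1 FPKM in the libraries labelled Kdm6b-deficient. In both genes the libraries labelled Kdm6b-deficient lay on either side of a control. The log2 fold changes were −0.04 for *Ezh2* (95% interval −0.71 to 0.63, adjusted p = 0.974 from limma) and −0.19 for *Ezh1* (−0.70 to 0.33, adjusted p = 0.837 from limma).

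*Ezh1* exceeded *Ezh2* in all 4 libraries, by 1.88-fold and 1.47-fold in the controls and by 1.1-fold and 2.05-fold in the libraries labelled Kdm6b-deficient. *Ezh2* made up 34.7% and 40.6% of their summed FPKM in the controls and 47.6% and 32.8% in the libraries labelled Kdm6b-deficient. The share was thus highest and lowest within the Kdm6b-deficient label. The sum of both was steadier, at 56.3 and 53.6 FPKM in the controls against 51.8 and 49.2 FPKM in the libraries labelled Kdm6b-deficient, where both lay below both controls. When libraries were scaled to T cell genes the sum was 44.3 and 50.9 in the controls against 49.0 and 69.9, with overlap. Proliferation markers are given beside *Ezh2*, and the part of proliferation in its level was not tested. The geometric mean of the 14 markers, relative to control replicate 1, was 1.44 in control replicate 3, and 1.12 and 1.22 in the libraries labelled Kdm6b-deficient replicates 1 and 3.

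Of the core subunits, *Eed*, which reads the methyl mark (Entrez 13626, chromosome 7, 89954654 to 89980976), was at 23.4 and 23.5 FPKM in the controls and at 26.2 and 20.4 FPKM in the libraries labelled Kdm6b-deficient. The controls nearly coincided, and the libraries labelled Kdm6b-deficient fell on either side of them (log2 fold change −0.02, 95% interval −0.56 to 0.52). *Suz12*, which holds the complex together (Entrez 52615, chromosome 11, 79993106 to 80034123), had the lowest mean level of the 10 genes, 11.6 and 15.0 FPKM in the controls against 12.6 and 9.74 FPKM in the libraries labelled Kdm6b-deficient. Its groups overlapped too (log2 fold change −0.23, 95% interval −0.91 to 0.44). Adjusted p from limma was 0.987 for *Eed* and 0.841 for *Suz12*. Of the 50-base stretches of *Eed*, 10.5% also occur in *E230029C05Rik* on the opposite strand. The ratio of *Eed* to *Suz12* was 2.02 and 1.57 in the controls and 2.08 and 2.1 in the libraries labelled Kdm6b-deficient.

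The histone-binding subunits are not particular to PRC2, since RBBP4 and RBBP7 also serve the NuRD and SIN3 deacetylase complexes. *Rbbp4* (Entrez 19646, chromosome 4, 129307100 to 129335370) was at 45.5 and 48.4 FPKM in the controls and at 32.2 and 40.7 FPKM in the libraries labelled Kdm6b-deficient, without overlap. *Rbbp7* (Entrez 245688, chromosome X, 162760372 to 162779090) was by far the most abundant of the 10 genes, at 195.9 and 255.4 FPKM in the controls and at 218.6 and 247.9 FPKM in the libraries labelled Kdm6b-deficient, with overlap. The difference in *Rbbp4* did not pass the test (log2 fold change −0.37, SE 0.20, 95% interval −0.87 to 0.13, adjusted p = 0.755 from limma). For *Rbbp7* the log2 fold change was 0.06 (95% interval −0.46 to 0.58, adjusted p = 0.955 from limma). The ratio of *Rbbp7* to *Rbbp4* was 4.3 and 5.27 in the controls and 6.79 and 6.09 in the libraries labelled Kdm6b-deficient. The ratio carries a limit of annotation, because 33.8% of the 50-base stretches of the *Rbbp4* transcript also occur in 4 other genes, *Gm26722*, *Sync* and *Gm4800* among them, of which *Gm26722* and *Sync* overlap it on the opposite strand, and 15.1% of those of *Rbbp7* occur in *Gm6382* or *Txlng*. Whether reads were counted by strand is not given in the sources used here.

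Of the accessory subunits, *Mtf2*, a polycomb-like protein (Entrez 17765, chromosome 5, 108065660 to 108109219), was at 33.2 and 31.0 FPKM in the controls and at 26.7 and 21.4 FPKM in the libraries labelled Kdm6b-deficient. Both libraries labelled Kdm6b-deficient lay below both controls, though not when libraries were scaled to T cell genes. The log2 fold change of −0.41 (SE 0.21, 95% interval −0.93 to 0.11) was the largest in size of the 10 and did not pass the test (adjusted p = 0.755 from limma). Of its 50-base stretches, 8.68% are shared with other genes, mostly *Tmed5* on the opposite strand. *Jarid2*, which carries a jumonji domain without demethylase activity (Entrez 16468, chromosome 13, 44730774 to 44921643), was at 20.2 and 15.7 FPKM in the controls and at 15.2 and 16.0 FPKM in the libraries labelled Kdm6b-deficient, so that control replicate 1 was high and the other 3 lay close together. Its log2 fold change was −0.18 (95% interval −0.76 to 0.40, adjusted p = 0.854 from limma).

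**Figure D2:**
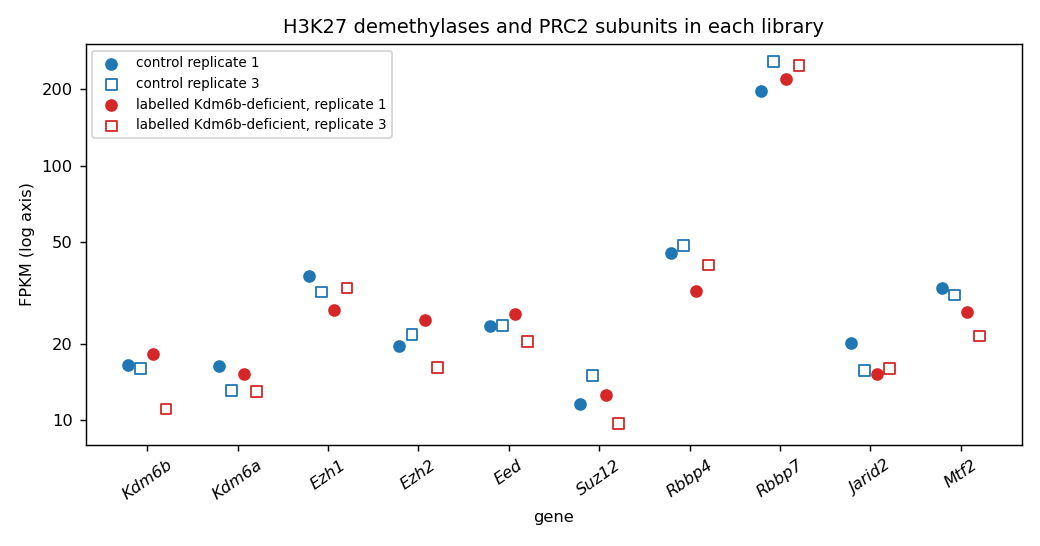
FPKM (log axis) of the 10 genes, with 1 point per library. *Rbbp4* and *Mtf2* are the genes whose libraries labelled Kdm6b-deficient both lie below both controls in FPKM as deposited (they overlap when scaled to T cell genes), and in the other 8 the groups overlap.

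Across the 10 genes, limma called 0 at an adjusted p under 0.05, as it did for 0% of the 12009 genes tested, and 0 had an unadjusted p under 0.05, as did 642 genes or 5.35% of those tested. When replicate number entered the model as a block, it called 0 of the 10 and 8.49% of all genes. At 2 libraries a group, the smallest two-sided p of an exact permutation test over samples is 0.333. In 2 of the 10 both libraries labelled Kdm6b-deficient lay below both controls, where 18.6% of all genes did so, and in 0 both lay above, where 18.4% did. The log2 fold change was below 0 in 9 of the 10, against 49.9% of all genes, and the median was −0.18, against a median of 0.00 and quartiles of −0.22 and 0.29 over all genes. When libraries were scaled to T cell genes, which moved the median of all genes to 0.38, 9 of the 10 were above 0 and 8 lay below that median. Above 1 or below −1 were 0 of the 10, and 6.64% of all genes, 6.2% above and 0.441% below. Without the library labelled Kdm6b-deficient replicate 3 the log2 fold change was 0.25 for *Ezh2*, 0.15 for *Eed* and −0.033 for *Rbbp7*, which changed sign as did *Kdm6b* and *Kdm6a*. It was −0.32 for *Ezh1*, −0.064 for *Suz12*, −0.53 for *Rbbp4*, −0.21 for *Jarid2* and −0.26 for *Mtf2*. Without control replicate 1 it was 0.092 for *Kdm6a* and −0.13 for *Rbbp7*, which changed sign, and for the other 8 it was between −0.41 for *Rbbp4* and −0.0082 for *Jarid2*.

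What the libraries allow is given by the intervals. The upper 95% limits, each for a single gene, ran from 1.08-fold for *Mtf2* to 1.54-fold for *Ezh2*, and the lower limits from 0.526-fold to 0.726-fold. The upper limits moved with the scaling. When libraries were scaled to T cell genes they ran from 1.69-fold for *Mtf2* to 2.78-fold for *Rbbp7*, with 2.23-fold for *Ezh1*, *Ezh2* and *Eed*. In 8 of the 10 genes the difference between the group means was smaller than the difference between the libraries of 1 group. The lowest library was estimated at 484 fragments for *Suz12*, 847 for *Kdm6b* and 5737 for *Rbbp7*. The counting error at the lowest library, from these estimates, was at most 4.66% in any of the 10 genes.

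The order of the levels, from the highest mean, was *Rbbp7*, *Rbbp4*, *Ezh1*, *Mtf2*, *Eed*, *Ezh2*, *Jarid2*, *Kdm6b*, *Kdm6a* and *Suz12*. *Rbbp7* exceeded *Rbbp4* by a mean log2 ratio of 2.47 (SD 0.285, n = 4 libraries), and *Rbbp4* exceeded *Ezh1* by 0.36 (SD 0.163). *Mtf2* over *Eed*, 0.25 (SD 0.238), and *Eed* over *Ezh2*, 0.20 (SD 0.121), also kept their order in every library, with mean log2 ratios above their SD. *Ezh1* also exceeded *Mtf2* in every library, but by 0.21 with an SD of 0.283. *Ezh1* and *Mtf2*, *Ezh2* and *Jarid2*, *Jarid2* and *Kdm6b*, *Kdm6b* and *Kdm6a*, and *Kdm6a* and *Suz12* did not differ beyond their spread. The demethylases and *Suz12* thus stood at the lower end, close to the median level of all tested genes, 13.3 FPKM.

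The 3 genes whose pattern was nearest to that of *Kdm6b*, by Euclidean distance between mean-centred log2(FPKM + 1) over the 4 libraries, were *Dhx58* (distance 0.0417), *Slc25a30* (0.0446) and *Tmem263* (0.0476). *Dhx58*, for example, was at 6.23 and 6.19 FPKM in the controls and at 6.88 and 3.91 FPKM in the libraries labelled Kdm6b-deficient. Of the other 9 genes *Ezh2* was nearest, at rank 309 of 12008, followed by *Eed* at rank 869. In *Kdm6b*, *Ezh2* and *Eed* alike, the Kdm6b-deficient label held both the highest and the lowest library. With 4 points the likeness is a description.

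The makeup of the libraries differed, and not in step with the 10 genes in every library. In bulk RNA, fewer cells of a type and less RNA per cell cannot be told apart. The geometric mean of the 22 epithelial markers, relative to control replicate 1, was 3.21 in control replicate 3 and 2.87 and 7.73 in the libraries labelled Kdm6b-deficient replicates 1 and 3, with 18 of 22 at a log2 fold change above 1, where 6.2% of all genes were. Without the library labelled Kdm6b-deficient replicate 3 it was 3 of 22, and 355 of all 12009 genes. That of the 10 T cell markers was 0.731 in control replicate 3 and 0.789 and 0.433 in the libraries labelled Kdm6b-deficient. Its lowest library was also the lowest for 6 of the 10 genes, *Kdm6b*, *Kdm6a*, *Ezh2*, *Eed*, *Suz12* and *Mtf2*. Of the T cell markers, *Cd5* and *Cd2* spread most, at 3.38 to 37.9 FPKM and 14.76 to 59.55 FPKM. For *Cd3d*, *Cd3e*, *Cd3g*, *Cd247* and *Ptprc* alone the geometric mean was 0.829 in control replicate 3. It was 0.832 and 0.554 in the libraries labelled Kdm6b-deficient. That of the 10 genes described here was 0.998 in control replicate 3, and 0.943 and 0.837 in the libraries labelled Kdm6b-deficient. The 8 genes listed as myeloid markers, *Fcer1g* among them, had a geometric mean of 0.724 in control replicate 3. It was 1.27 and 1.02 in the libraries labelled Kdm6b-deficient. The B cell markers had one of 0.379 in control replicate 3 and of 0.796 and 0.813 in the libraries labelled Kdm6b-deficient. The 16 immediate-early genes, which respond to handling as well as to receptor signals, had a geometric mean of 1.11 in control replicate 3 and 1.3 and 1.31 in the libraries labelled Kdm6b-deficient. The part of these in the levels of the 10 genes was not tested.

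Single genes of these lists are given with their log2 fold change in parentheses. Of the epithelial genes, the keratins *Krt8*, *Krt19* and *Krt18* had log2 fold changes of 1.51, 1.52 and 1.71, the secretory genes *Agr2* and *Tff3* both of 1.51, and the transcription factor *Cdx1* one of 1.99, with *Krt8* at 274.7 to 2518 FPKM. *Lck*, the T cell kinase, was at 460.7 to 915.1 FPKM (−0.53). Of the immediate-early genes, *Atf3* (1.07) and *Fos* (0.80) lay above the controls in both libraries labelled Kdm6b-deficient, and *Nr4a2* (−0.67) and *Junb* (−0.25) below. *Lyz2* (0.71) and *Cd68* (0.59), both of myeloid cells, lay above. *Fcer1g* (−0.54), listed with the myeloid markers, lay below, at 851.6 to 1785 FPKM against 21.1 to 45.9 FPKM for *Cd68*. It shared its highest and lowest library with the geometric mean of the T cell markers, and which cells it came from was not tested. *Blnk*, a B cell adaptor, was at 2.62 and 2.81 FPKM in the controls against 6.30 and 9.15 FPKM (1.21), while *Cd79b* (−0.07) overlapped, as did the proliferation genes *Birc5* (0.0060) and *Ccnb2* (0.11). None of these passed the test (adjusted p from limma of 0.755 to 0.995).

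**Figure D3:**
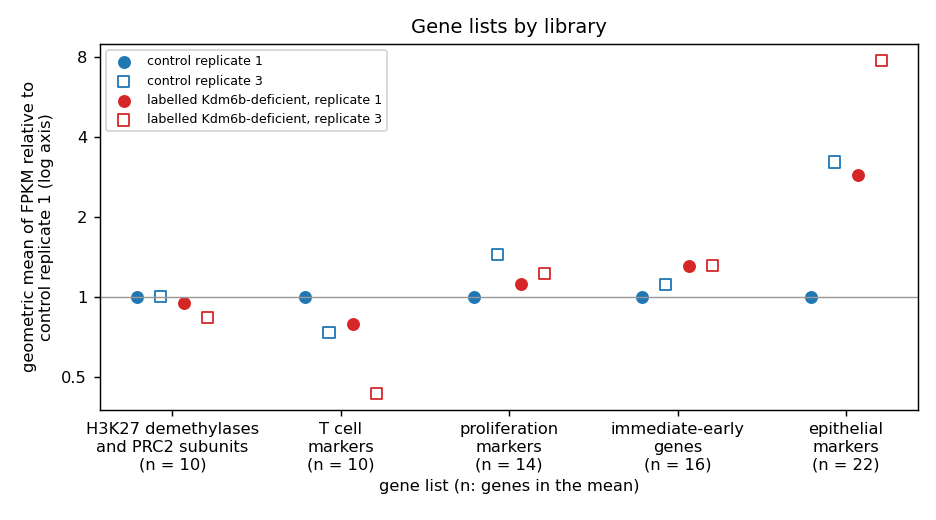
Geometric mean of FPKM of 5 gene lists in each library, relative to control replicate 1 (log axis), with 1 point per library. The 10 genes lie between 0.837 and 1, while T cell markers are at 0.433 and epithelial markers at 7.73 in the library labelled Kdm6b-deficient replicate 3.

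Scaling to T cell genes moved all genes alike and turned the sign of most of the 10. When libraries were scaled to the mean of *Cd3d*, *Cd3e*, *Cd3g*, *Cd247* and *Ptprc*, the log2 fold change of all tested genes had a median of 0.38, and that of 9 of the 10 genes was above 0, all but *Mtf2*. On that scale *Kdm6b* was at 13.0 and 15.2 scaled FPKM in the controls and at 17.2 and 15.7 in the libraries labelled Kdm6b-deficient, and so lay higher in both (log2 fold change 0.22, 95% interval −0.56 to 0.99). *Kdm6a* was at 12.8 and 12.5 in the controls against 14.4 and 18.5, also without overlap, where the FPKM as deposited overlapped (log2 fold change 0.34, 95% interval −0.46 to 1.14). *Ezh2* and *Eed* lay above in the same way, so that 4 of the 10 did, against 37.4% of all tested genes, and 0 lay below, against 2.44%. *Rbbp4* and *Mtf2*, which lay below the controls in FPKM as deposited, overlapped between groups on this scale. Relative to the median of all genes on that scale 8 of the 10 were lower and 2 higher, *Rbbp7* by 0.10 and *Eed* by 0.0032. On either scale 0 of the 10 passed the test, as did 0 of all 12009 tested genes.

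**Figure D4:**
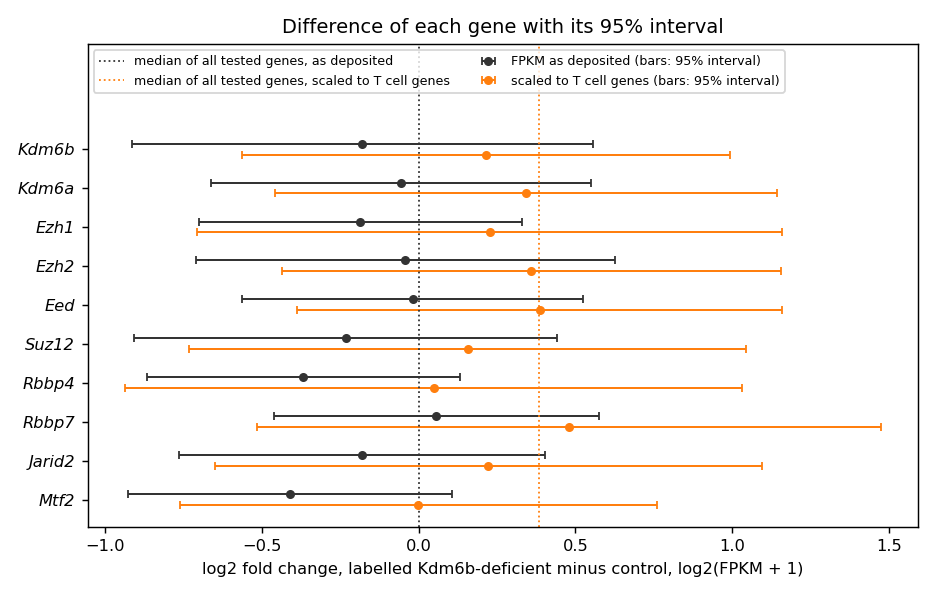
Log2 fold change, labelled Kdm6b-deficient minus control, of each of the 10 genes with its 95% interval from limma (n = 2 libraries a group), on FPKM as deposited and scaled to T cell genes. Dotted lines are the medians of all tested genes, 0.00 and 0.38, and every interval includes 0.

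The wider machinery of these marks was read from 5 further lists of 60 genes, of which 55 were tested. Limma called 0 of them, 2 had an unadjusted p under 0.05 (*Ash2l*, higher, and *Gatad2a*, lower), where 5.35% of all genes did, and the median log2 fold change was −0.15. Both libraries labelled Kdm6b-deficient lay above both controls in 8 (14.5%) and below in 10 (18.2%), shares near the background of 18.4% and 18.6%. Of the other PRC2 accessory subunits, 5 of 7 were tested, with 1 above, 0 below and a median of 0.00. *Phf1*, a relative of *Mtf2*, was at 14.7 and 6.25 FPKM in the controls and at 11.9 and 6.41 FPKM in the libraries labelled Kdm6b-deficient. *Lcor*, whose locus also encodes a PRC2-binding protein, was at 9.17 and 8.12 FPKM against 9.67 and 9.61 FPKM.

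PRC1, the complex that ubiquitinates histone H2A at polycomb targets, had 22 of 24 subunits tested, with a median log2 fold change of −0.15. Of these, 4 lay above and 2 below, against 18.4% and 18.6% of all tested genes. *Pcgf6*, a RING finger partner in variant complexes, was at 8.77 and 6.95 FPKM in the controls and at 16.1 and 11.3 FPKM in the libraries labelled Kdm6b-deficient (log2 fold change 0.72, SE 0.29). *Cbx7*, which reads H3K27me3, was at 2.57 and 2.73 FPKM against 5.97 and 4.01 FPKM (log2 fold change 0.70, SE 0.32). *Pcgf3* had a log2 fold change of 0.59, and *Ring1* was listed at 1.83 and 0 FPKM in the controls against 3.01 and 2.72 FPKM. None of the 4 passed the test (adjusted p = 0.755 from limma for each). *Rnf2*, the main catalytic subunit, was at 34.5 and 34.0 FPKM in the controls and at 36.8 and 25.9 FPKM in the libraries labelled Kdm6b-deficient, and *Cbx8* spanned 22.9 to 37.5 FPKM with overlap.

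In the complex that removes that ubiquitin, 7 of 8 genes were tested, with a median of −0.16. In this complex 0 lay above and 3 below, against 18.4% and 18.6% of all tested genes. *Bap1*, its catalytic subunit, was at 38.5 and 40.6 FPKM in the controls and at 27.6 and 30.5 FPKM in the libraries labelled Kdm6b-deficient (log2 fold change −0.43, SE 0.18, adjusted p = 0.755 from limma). *Asxl2*, its cofactor, had a log2 fold change of −0.16. Values of these lists are from FPKM as deposited, and scaling to T cell genes moved the median of all genes to 0.38. Among the 9 partners of *Kdm6a* in the MLL3 and MLL4 complexes, 2 lay above and 2 below, with a median of −0.07. *Ash2l*, a core subunit of all MLL complexes, was at 8.85 and 10.6 FPKM in the controls and at 30.1 and 20.8 FPKM in the libraries labelled Kdm6b-deficient. This was the largest log2 fold change of the tested genes in the 5 lists (log2 fold change 1.28, SE 0.27, 95% interval 0.60 to 1.96), with an unadjusted p = 0.00407 and an adjusted p = 0.755 from limma. *Dpy30* and *Pagr1a*, the most abundant partners, overlapped between groups, at 87.3 to 129.3 FPKM and 31.8 to 46.9 FPKM. All 12 genes of H3K27 acetyltransferases and of the NuRD complex were tested, 1 above and 3 below, with a median of −0.25, and *Hdac1* was at 118.5 and 133.8 FPKM in the controls and at 108.9 and 111.9 FPKM in the libraries labelled Kdm6b-deficient, while *Mbd2* spanned 70.1 to 155.5 FPKM with overlap.

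**Figure D5:**
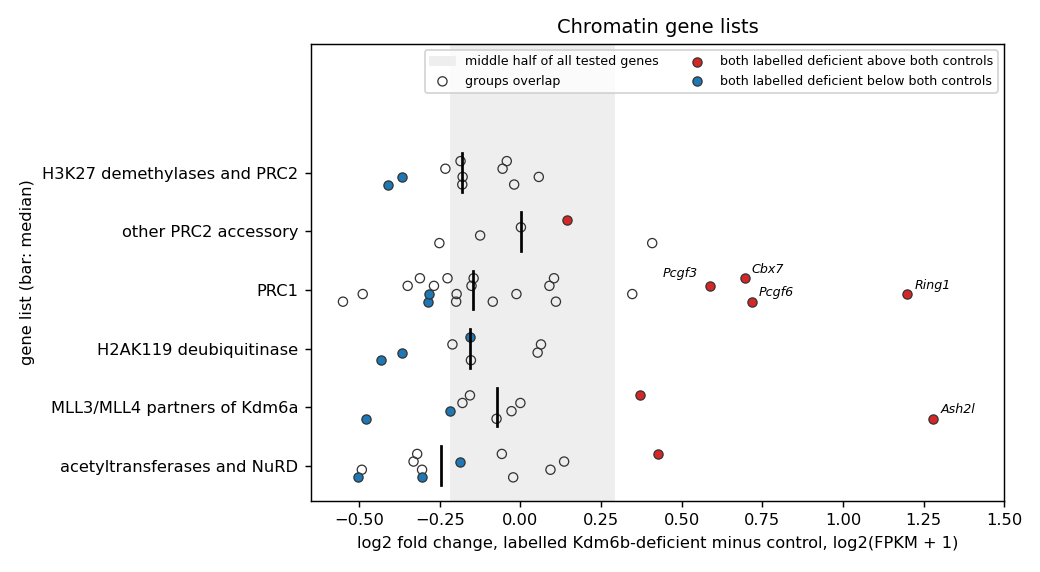
Log2 fold change, labelled Kdm6b-deficient minus control, of each tested gene in 6 chromatin gene lists, with a bar at the median of each list and the quartile range of all tested genes (−0.22 to 0.29) in grey. Filled points are genes whose groups do not overlap, and genes beyond 0.58 are named, *Ash2l* reaching 1.28.

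The listed genes that PRC2 classically silences were near 0, with the exception of *Cdkn2b*, the only Ink4 gene listed. Of 41 Hox and Ink4 genes 29 were listed, 27 of these were under 1 FPKM in every library, *Hoxb7* reached 1.05 FPKM in 1 library, and 1 gene passed the filter. *Hoxb6*, for example, was at 0 and 0.66 FPKM in the controls and at 0.12 and 0.81 FPKM in the libraries labelled Kdm6b-deficient. The 1 that passed, *Cdkn2b*, an inhibitor of cyclin-dependent kinases, was at 6.12 and 16.5 FPKM in the controls and at 12.8 and 35.7 FPKM in the libraries labelled Kdm6b-deficient, with overlap (log2 fold change 1.02, SE 0.61, adjusted p = 0.757 from limma). Without the library labelled Kdm6b-deficient replicate 3 it was 0.31. Its 4 libraries stood in the same order as the epithelial markers, and the part of epithelial RNA in it was not tested.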

How the data were processed

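TCRαβ+CD8αα+ IELs were sorted into TRIzol and sequenced on the HiSeq platform, with RNA of 3 mice pooled per library. HISAT and Bowtie2 were used by the authors for alignment to mm10 and RSEM for quantification, and FPKM is the unit of the deposited values. The submitters' processing notes name Bowtie2 2.2.5, RSEM 1.2.8 and the build GRCm38.p5. The HISAT version, the gene annotation and the strand setting are not given in the sources used here. FPKM are relative to the fragments of each library, so RNA of another cell type lowers the FPKM of T cell genes.

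Here Entrez identifiers were matched to RefSeq symbols (GRCm38.p6, 18467 of 19339 matched). Values were used as log2(FPKM + 1) where a gene reached 1 FPKM in 2 or more of the 4 libraries, which 12009 genes did. Groups (n = 2) were compared over all genes by limma 3.58.1 in R 4.3.3 (lmFit, then eBayes with its trend option), with Benjamini-Hochberg adjustment, 2-sided, at 0.05. Fragments were estimated from the spacing of low FPKM times transcript length, with 68.4% to 73.6% of low values within 0.15 of a step, so counting errors are approximate. Shared 50-base stretches came from GENCODE vM21 transcripts.

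Named were all 10 genes, and from each further list the 2 with the highest mean and up to 4 with the largest log2 fold change beyond 0.58 without overlap of the groups, every X and Y linked gene listed, and the 3 genes nearest to *Kdm6b*. *Gatad2a*, *Hoxb7*, *Cd2* and *Cd5* were named after their values were seen. The members and lists were chosen with earlier results of these data known. Alternatives were the pseudocount, the filter, 3 scalings, a replicate block, no trend and leaving out each library. Python 3.11.15, numpy 2.4.6, pandas 2.3.3 and matplotlib 3.10.9 were used. Not analysed here were the study's flow cytometry, RT-qPCR, CUT&Tag-seq and single-cell data.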

Additional observations from a re-analysis of the deposited data

How the results depend on the processing

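No gene of the 10 was called by limma under any alternative run on all 4 libraries. Over all tested genes limma likewise called 0 in each of these runs but the replicate block, where it called 1019. Scaling to T cell genes reversed the sign of 8, giving log2 fold changes of 0.22 for *Kdm6b*, 0.34 for *Kdm6a*, 0.23 for *Ezh1*, 0.36 for *Ezh2*, 0.39 for *Eed*, 0.16 for *Suz12*, 0.048 for *Rbbp4* and 0.22 for *Jarid2*, where the median of all genes moved to 0.38. Quantile normalization gave −0.021 for *Rbbp7*. Leaving out 1 library each gave −0.52 to 0.16 for *Kdm6b*, −0.20 to 0.092 for *Kdm6a*, −0.33 to 0.25 for *Ezh2*, −0.19 to 0.15 for *Eed* and −0.13 to 0.25 for *Rbbp7*, and the other 5 kept their sign. The lone library of a group is there assumed to vary like the others.

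Over all genes, those with a log2 fold change above 1 or below −1 numbered 797 (744 higher, 53 lower). They numbered 1381 with a pseudocount of 0.1, 1488 (1463 higher, 25 lower) with scaling to T cell genes, and 364 to 1577 when 1 library was left out (364 and 1419 without control replicates 1 and 3, 1577 and 434 without the libraries labelled Kdm6b-deficient replicates 1 and 3). Quantile normalization gave 558 higher and 97 lower.

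With the replicate number as a block, limma called 1019 genes, 8.49% of those tested, 886 higher and 133 lower, but 0 of the 10, whose smallest adjusted p was 0.194 (*Mtf2*), then 0.211 (*Rbbp4*). *Ash2l* (adjusted p = 0.00738) and *Cdkn2b* (0.0125) were called with the block, as were 19 of 22 epithelial markers, 5 of 16 immediate-early genes, 1 T cell marker and *Blnk* (0.02). Same-numbered libraries deviated together across genes (correlation 0.56), but nothing says that a number marks a shared preparation. Other log2 fold changes of the 10 kept their sign, although that of *Mtf2* was −0.0012 with scaling to T cell genes.

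The estimated counting error of these genes is at most 4.66% in the lowest library.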
